A study of Mus musculus with 8 samples.

Results

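The protein-coding part of genes was examined away from promoters: CpGs on autosomes that lie inside a coding sequence (CDS) of the GENCODE vM1 annotation, in the mouse genome build mm9, and more than 3 kb from the transcription start site (TSS) of any protein-coding transcript. Of the 757812 CpGs listed in all libraries, 151935 were autosomal CDS CpGs, and 51240 of these met the distance rule. They came from 9569 coding exons of 5512 genes. By place in the transcript, 31144 lay in inner coding exons, 13323 in last, 2118 in first and 2071 in single coding exons (the only coding exon of a transcript). The class differed between transcripts for another 1948 CpGs, and 636 lay only in transcripts annotated without a start or a stop codon. The rule uses position alone and no methylation value.

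The cells were neural precursor cells (NPCs) differentiated from A2lox.cre, a mouse ES cell line built for doxycycline-inducible expression, grown on feeder cells in serum and LIF before differentiation. The controls carried an inducible non-targeting shRNA (shScr) and the knockdown (KD) cells an inducible shRNA against *Tet3* (shTet3), which encodes a dioxygenase that oxidises 5-methylcytosine (5mC) to 5-hydroxymethylcytosine (5hmC). Cells of both groups received doxycycline at 2 µg/ml for 5 days. DNA (100 ng) from 2 replicates of each shRNA was cut with MspI. It went into bisulphite sequencing (BS), which reads both 5mC and 5hmC as methylated. It also went into oxidative bisulphite sequencing (oxBS), which reads 5mC alone, and there were 8 libraries. BS and oxBS libraries of one shRNA and number were taken as the same DNA, though their titles give only the number. The ES cells came from drug-selected clones, as the study's methods give them. Nothing in the labels says that replicates came from separate clones or differentiations, so that *p* values measure the spread between these samples only. The libraries hold DNA, so neither the KD of *Tet3* nor the markers of NPCs could be checked in them.

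In mammalian genes, CpGs in gene bodies are commonly methylated, whereas most CpG-rich promoters are not. DNMT1 copies methylation after replication and DNMT3 enzymes add it anew, in gene bodies partly through recognition of a histone mark, H3K36 trimethylation, left by transcription. Methylated cytosine deaminates easily, which depletes CpGs from most of the genome, but coding exons keep more of them because the protein code constrains their sequence. The methylation of an exon can therefore be read at many neighbouring CpGs.

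The total of calls per library ranged from 42516767 to 61865967, and median coverage of the coding-exon CpGs ranged from 41 to 53 calls. At a minimum of 10 calls, 45763 of the 51240 coding-exon CpGs were usable in the 4 oxBS libraries, 44842 in the 4 BS libraries and 42092 in all 8. The oxBS libraries of shScr stood apart from each other: replicate 2 exceeded replicate 1 by 10.6 percentage points over coding-exon CpGs, and by 5.09 over all listed CpGs. The mean change and the counts of DMPs and of exons called are therefore given also without each of them.

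The sequences of 7 coding-exon stretches show what was measured. They are taken from mm9 along the gene's strand, 5′ to 3′, and each covered CpG is in capitals. *Cdh3* is among the exons with the largest losses, *Hs3st3b1* is the one with the largest gain, *Atxn1*, *Shroom3* and *Zfp697* are among the first, inner and last exons with the most CpGs, and *Shox2* and *Acacb* are at the low and high ends of 5mC.
Cdh3, chr8:109063695-109063823, + strand: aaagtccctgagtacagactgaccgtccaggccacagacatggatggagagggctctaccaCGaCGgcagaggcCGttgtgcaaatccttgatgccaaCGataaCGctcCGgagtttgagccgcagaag
Hs3st3b1, chr11:63702679-63702828, - strand: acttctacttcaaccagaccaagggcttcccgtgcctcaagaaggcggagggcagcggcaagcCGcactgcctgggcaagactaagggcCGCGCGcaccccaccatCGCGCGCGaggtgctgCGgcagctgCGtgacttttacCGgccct
Atxn1, chr13:45663583-45663732, - strand: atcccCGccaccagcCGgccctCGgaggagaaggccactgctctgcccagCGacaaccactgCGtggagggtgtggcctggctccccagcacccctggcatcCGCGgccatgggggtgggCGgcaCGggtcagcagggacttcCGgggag
Shroom3, chr5:93371444-93371593, + strand: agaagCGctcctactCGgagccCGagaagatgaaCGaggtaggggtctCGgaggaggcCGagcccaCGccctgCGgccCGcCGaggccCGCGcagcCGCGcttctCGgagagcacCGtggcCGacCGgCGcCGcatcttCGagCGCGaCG
Zfp697, chr3:98231906-98232055, + strand: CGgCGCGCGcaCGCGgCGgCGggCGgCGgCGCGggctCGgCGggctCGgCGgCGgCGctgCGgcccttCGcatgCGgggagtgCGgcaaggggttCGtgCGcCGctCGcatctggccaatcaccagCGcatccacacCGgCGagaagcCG
Shox2, chr3:66777581-66777730, - strand: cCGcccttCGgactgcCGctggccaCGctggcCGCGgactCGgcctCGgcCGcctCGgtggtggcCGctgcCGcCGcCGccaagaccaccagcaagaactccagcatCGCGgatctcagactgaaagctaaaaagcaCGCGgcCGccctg
Acacb, chr5:114638340-114638478, + strand: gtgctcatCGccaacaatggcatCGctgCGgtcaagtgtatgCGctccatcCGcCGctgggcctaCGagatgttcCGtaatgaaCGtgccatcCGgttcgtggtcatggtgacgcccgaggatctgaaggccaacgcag
The 6 covered CpGs in 129 bp of *Cdh3* had levels from 68.0% to 84.6% in shScr (means of 2 oxBS libraries). The 19 covered CpGs in 150 bp of *Shox2* lay between 0% and 0.446%. The 24 CpGs of *Shroom3* ranged from 29.0% to 73.1%, and the 10 of *Acacb* from 91.3% to 99.3%.

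How much 5mC coding exons carried was compared first. In shScr, 5mC averaged 61.1% in replicate 1 and 71.7% in replicate 2 over 45763 coding-exon CpGs. In shTet3 it averaged 52.6% and 54.9%. The group means were 66.4% ± 7.51 and 53.8% ± 1.64 (SD, n = 2 each), a change of -12.6 percentage points. Both shTet3 libraries lay below both shScr libraries, and the difference (-12.6) was larger than the gap between the shScr replicates (10.6). The two-sided exact permutation test gave *p* = 0.33, the smallest that 2 libraries against 2 allow. Without shScr replicate 1 the change was -17.9, and without shScr replicate 2 it was -7.31. The BS libraries gave 61.3% and 71.7% in shScr against 52.3% and 54.9% in shTet3 over 44842 CpGs, a change of -12.9 (exact permutation *p* = 0.33). Coding exons of shTet3 kept 81.0% of the shScr 5mC level. The kept share was 77.2% in introns and 73.3% between genes, both also more than 3 kb from a TSS.

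**Figure D1:**
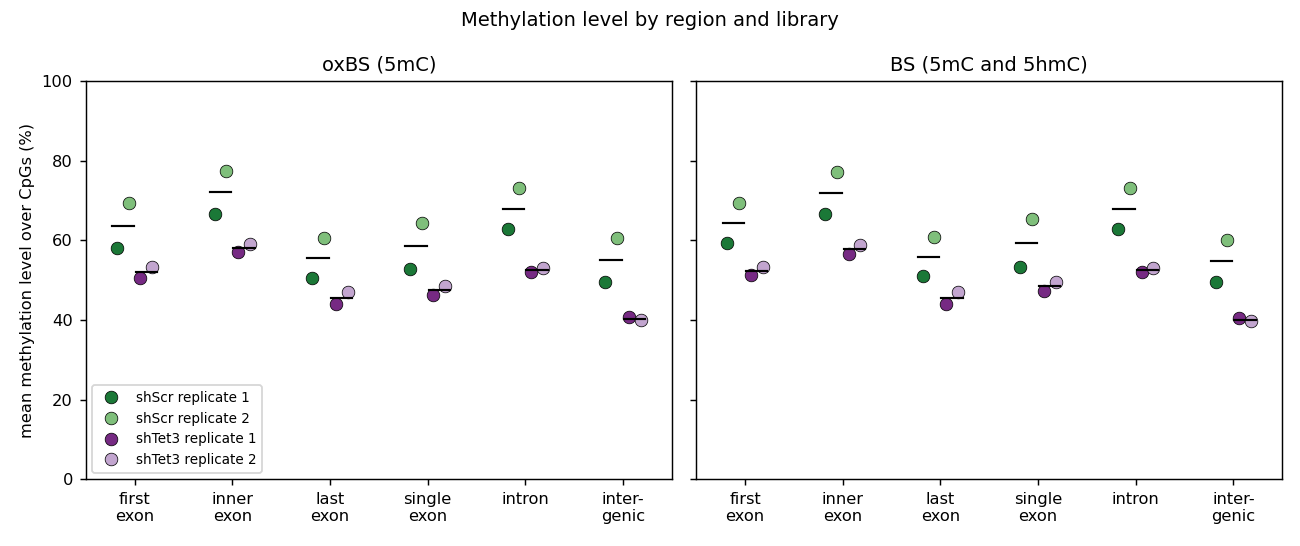
Mean methylation level (y axis, %) over the CpGs of first, inner, last and single coding exons, introns and intergenic regions (x axis), for oxBS (left) and BS libraries (right). Points are libraries, coloured by shRNA and replicate, and bars are means of 2 replicates. In oxBS, inner coding exons had the highest levels of the exon classes (66.6% and 77.4% in shScr) and last exons the lowest (50.7% and 60.6%), and in every class both shTet3 libraries lay below both shScr libraries.

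Levels depended on the place of the exon in the gene. Inner coding exons had 66.6% and 77.4% 5mC in the 2 shScr replicates and 57.0% and 59.1% in shTet3. Last coding exons had 50.7% and 60.6% in shScr against 44.1% and 46.9% in shTet3. First coding exons lay between them, at 58.0% and 69.3% in shScr against 50.6% and 53.3% in shTet3. Averaged over the 4 oxBS libraries, last exons were -14.5 ± 2.29 (SD, n = 4) percentage points from inner exons and first exons -7.23 ± 1.36. Both differences had one sign in 4 of 4 libraries, and the two-sided exact sign-flip permutation test gave *p* = 0.13 for each, the smallest that 4 libraries allow. They belong to 16 level contrasts, among which the lowest adjusted *p* (Benjamini-Hochberg, exact permutation) was 0.154.

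The lower mean of last exons went with a larger share of CpGs with little or no methylation. In shScr, 22.9% and 17.9% of last-exon CpGs had levels below 10%, against 6.57% and 4.60% of inner-exon CpGs. Last exons were also denser in CpGs: 38.4% of their CpGs had 16 or more CpGs within 100 bp on either side, itself included, against 11.9% in inner exons. When inner-exon CpGs were weighted to the CpG density of last exons, the difference was -2.50 ± 0.730 (SD, n = 4). The same weighting left -1.19 ± 0.561 for first exons, and both were negative in 4 of 4 libraries (the smallest *p* of the exact permutation test).

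Coding exons and introns had much the same level over all CpGs, and coding exons the higher one among CpGs of like density. Over all CpGs, coding exons minus introns gave -1.65 and -1.47 percentage points in the shScr libraries and 0.579 and 1.99 in the shTet3 libraries, a mean of -0.138 ± 1.74 (SD, n = 4, exact permutation *p* = 1). The difference was negative in both shScr libraries and positive in both shTet3 libraries, and the sign of the mean turned with the coverage minimum, the distance to the TSS and without either shScr library. Coding-exon CpGs had a median of 10 CpGs in this window, and intron CpGs a median of 5. At 1 to 5 CpGs per window, the shScr means were 77.8% in coding exons and 71.9% in introns. At 6 to 10 they were 78.6% and 71.2%, and at 11 to 15 they were 71.8% and 53.7%. At 16 or more the means were 28.0% in coding exons and 13.2% in introns. In each of these 4 groups coding exons were the more methylated. With introns weighted to the CpG density of the coding exons, coding exons were 11.3 ± 1.5 percentage points higher (SD, n = 4 oxBS libraries), with 10.1 and 13.2 in shScr against 10.1 and 11.8 in shTet3 (the smallest *p* of the exact permutation test). This weighting was chosen after the data were seen.

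**Figure D2:**
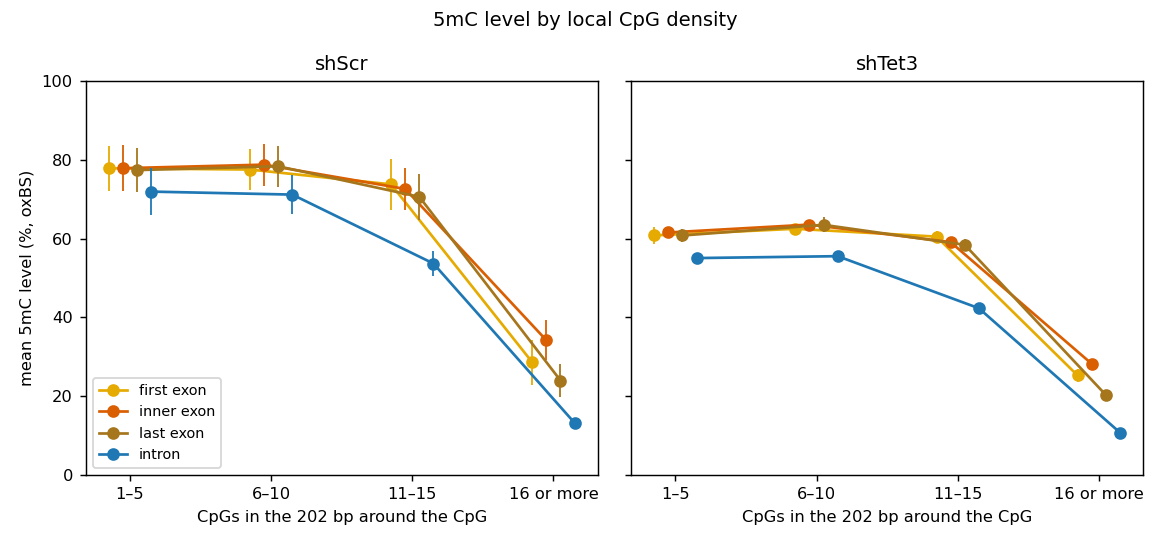
Mean 5mC level (y axis, %, oxBS) by the number of CpGs within 100 bp of each CpG, itself included (x axis) in shScr (left) and shTet3 (right). Points are means of 2 replicates, vertical lines join the 2 replicates, and colours are first, inner and last coding exons and introns. Exon classes lie close together up to 15 CpGs per window and above introns throughout, as in the 11 to 15 bin of shScr (72.6% in inner exons, 53.7% in introns).

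At the borders of inner exons, 5mC was slightly higher on the exon side. Intron CpGs within 50 bp before an inner exon averaged 71.1% in shScr (1810 CpGs), and those within 50 bp after it 71.4% (2444 CpGs). CpGs in the first 50 bp of the exon averaged 74.0% (5729 CpGs) and in the last 50 bp 74.7% (6510 CpGs). The exon side was the higher one in all 4 oxBS libraries at both borders. Its shTet3 means were 59.3% and 59.95%, against 55.9% and 57.1% on the intron side. More than 100 and up to 200 bp into the exon, the averages were 66.6% from its start and 68.4% from its end. Each CpG was counted from the nearer edge, so these averages come only from exons longer than 200 bp. Distance from the edge was not tested apart from exon length.

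The length of the exon and the distance to the promoter went with the level as well. Inner exons of up to 100 coding bp averaged 75.6% in shScr and those over 500 and up to 1000 bp 58.3%, but longer ones 72.9%. Last exons averaged 76.4%, 47.7% and 55.2% at these lengths. Coding-exon CpGs up to 5000 bp from a TSS averaged 57.7%, those between 30000 and 100000 bp away 73.6%, and those farther away 66.0%. At the rule's own limit, CDS CpGs 2 to 3 kb from a TSS averaged 48.6% in shScr and 39.2% in shTet3 (6361 CpGs), and those 3 to 4 kb away 57.1% and 46.8% (4453 CpGs). The parts of exon length and distance in the level were not tested apart from CpG density.

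The loss in shTet3 was then followed CpG by CpG. Hypo-DMPs (differentially methylated positions lower in shTet3, *q* below 0.01 in a logistic regression of pooled calls and a pooled difference over 10 percentage points) numbered 12501 of the 45763 coding-exon CpGs, or 27.3%. Of all 662455 listed CpGs tested, 13.9% were called, with 3.93% within 3 kb of a TSS, 32.3% in introns and 29.2% between genes. The median pooled difference of the coding-exon hypo-DMPs was -22.8 percentage points, and at 91.7% of them both shTet3 libraries lay below both shScr libraries. Over all coding-exon CpGs, called or not, this ordering held at 49.4%, against 26.3% of all CpGs tested. Inner exons had 8501 hypo-DMPs (30.8% of 27620 CpGs), first exons 26.3% of 1903 and last exons 2517 (21.0%). The BS libraries gave 12993 hypo-DMPs in coding exons (29.0%), with 13.8% called over all CpGs. These calls treat each read as independent. An F test that scales the error by the spread between replicates called 0 coding-exon CpGs, with 1657 lower (3.62%) and 0 higher at an unadjusted *p* below 0.05 and a difference over 10 percentage points. Over all CpGs tested these shares were 1.95% and 0.00196%. The likelihood ratio test called 16303 hypo-DMPs without shScr replicate 1 and 4734 without shScr replicate 2, and 6896 and 10188 without shTet3 replicates 1 and 2.

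The size of the change differed with the level in the control. CpGs were grouped by their BS level in shScr, which was taken to come from the same DNA as the oxBS level. The grouping is therefore not independent of the change (the replicate differences of BS and oxBS in shScr had a correlation of 0.376 over 42092 CpGs), and the values are a description. Coding-exon CpGs at 50 to 70% differed by -16.7 percentage points between shTet3 and shScr, those at 70 to 90% by -15.9 and those at 90 to 100% by -11.4. Below 10% the difference was -0.694. In introns the 3 upper groups gave -18.7, -18.0 and -12.7, and between genes -19.4, -19.1 and -14.6. The 2 same-numbered differences behind the coding-exon value at 50 to 70% were -6.45 and -27.0, and at 90 to 100% they were -12.3 and -10.5. The shScr replicates were 18.5 percentage points apart in the first of these groups and 5.86 in the second. In each of these groups both shTet3 libraries lay below both shScr libraries.

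The change of coding exons was also set beside that of introns. Over all CpGs the change was -12.6 in coding exons and -15.5 in introns, and the difference of the changes was 2.85 percentage points (exact permutation *p* = 0.33, the smallest possible). With introns weighted to the CpG density of coding exons the difference was -0.694 (exact permutation *p* = 1). The lowest adjusted *p* among 16 contrasts of changes was 0.444 (Benjamini-Hochberg, exact permutation). Within coding exons the change went from -16.4 at 1 to 5 CpGs per window to -4.51 at 16 or more. These groups began from unlike shScr levels, 77.8% and 28.0%, with 0.509% and 41.4% of their CpGs below 10%. Hypo-DMPs made up 36.1% of the CpGs in the first of these groups and 6.69% in the second.

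**Figure D3:**
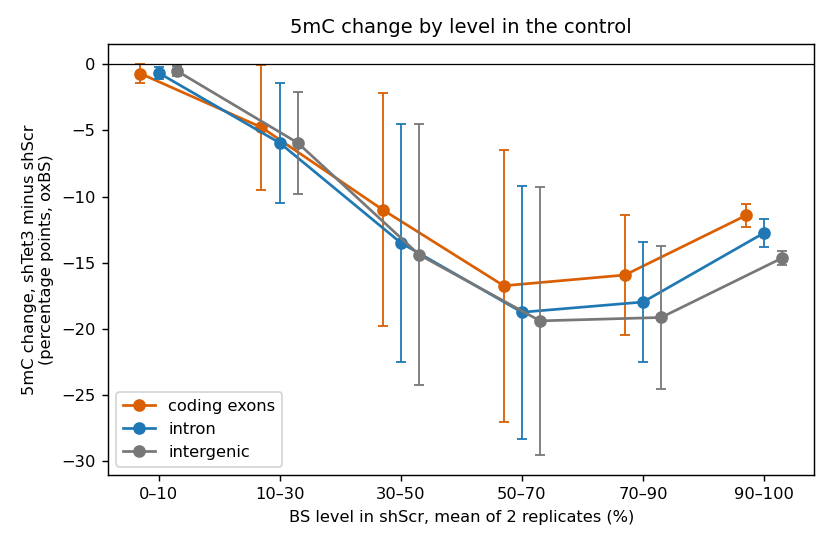
Change of 5mC, shTet3 minus shScr (y axis, percentage points, oxBS), by the mean BS level in shScr (x axis, %), for coding exons, introns and intergenic CpGs. Points are differences of group means and vertical lines join the 2 differences between same-numbered replicates, which are known to share only their number. The change of coding exons reached -16.7 at 50 to 70% and was -11.4 at 90 to 100%, and the 3 region types overlapped widely.

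Hyper-DMPs, called by the same thresholds in the other direction, were few. Coding exons held 84, or 0.184% of their CpGs, against 0.0814% of all CpGs tested. Both shTet3 libraries lay above both shScr libraries at 49 of the 84. Over all coding-exon CpGs this ordering held at 749 (1.64%), against 2.04% of all CpGs tested. Last exons held 45 hyper-DMPs (0.375% of 12005 CpGs), inner exons 28 (0.101% of 27620) and first exons 4. Both shTet3 libraries lay above both shScr libraries at 35 of those in last exons, 9 in inner and 2 in first exons. CpG-dense sequence held most of them: 68 of the 84 had 16 or more CpGs in the window around them, where 21.0% of all coding-exon CpGs lie. They came from 42 genes, with 10 in *Zfp787* and 9 in *Zfp697*. The count moved between 26 without shScr replicate 1 and 500 without shScr replicate 2, and in the BS libraries 37 were called, 0.0825% of the coding-exon CpGs, against 0.0621% of all CpGs tested. At the 84 oxBS hyper-DMPs the BS level was higher in shTet3 at 50, with a median difference of 1.46 percentage points.

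Several hyper-DMPs lay close together. The levels below are means over the hyper-DMPs alone, not over their exons, and the oxBS values chose them. *Zfp787*, which encodes a zinc finger protein, had 10 in its last coding exon between chr7:6084031 and 6084512, with mean 5mC of 52.5% and 79.0% in shScr against 89.7% and 81.4% in shTet3. Their BS levels were 63.9% and 76.1% in shScr against 70.5% and 84.8% in shTet3. *Zfp697* had 9 in its last exon, at 3.33% and 7.64% in shScr against 15.2% and 23.5% in shTet3, and its BS levels were 5.60% and 12.1% against 10.6% and 14.0%. In *Zfp787* and *Zfp697* the groups overlapped in the BS libraries, which were not used for the choice. *Clasrp* had 9 in an inner exon, at 10.1% and 51.8% in shScr against 34.7% and 49.6% in shTet3, so that its call rests on shScr replicate 1. *Hs3st3b1* had 6 in its last exon. *Shroom3* had 5 in an inner exon, at 21.5% and 71.2% in shScr against 64.1% and 60.4% in shTet3. Its calls thus also rest on shScr replicate 1. The 5 of *Fbrsl1* were spread over more than one exon, at 35.8% and 60.2% in shScr against 61.8% and 61.8% in shTet3. These genes were named for their counts of hyper-DMPs after the values were seen.

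Whole exons were compared next. An exon here is a merged coding interval of one gene, and 5436 had 3 or more covered CpGs. Both shTet3 libraries lay below both shScr libraries in 3823 of them (70.3%), against 54.5% of all 59128 regions (exons, and 1 kb tiles elsewhere) and 72.0% of the tiles in introns. Both lay above in 15 (0.276%), against 2.63% of all regions and 0.286% of the intron tiles. The median change was -14.3 percentage points, and 97.5% of the exons had a lower mean in shTet3. limma on log2 ratios of methylated to unmethylated calls gave no exon an adjusted *p* below 0.05, as for 0% of all regions, and the smallest was 0.109. At an unadjusted limma *p* below 0.05, 1336 exons were lower (24.6%), against 18.5% of all regions and 27.1% of the intron tiles, and 2 were higher, against 0.374% of all regions. These counts rested on the libraries used. Without shScr replicates 1 and 2 in turn, 3807 and 784 exons were lower and 2 and 41 higher, and without shTet3 replicates 1 and 2 the lower ones were 48 and 324. At an adjusted *p* below 0.05, limma called 2813 exons lower and 1 higher without shScr replicate 1, with 22535 and 130 among all regions. Without shScr replicate 2 it called 2 lower and 1 higher, with 27 and 48 among all regions, and without either shTet3 replicate it called 0. With the replicate number as a block it called 136 lower and 0 higher, with 647 and 10 among all regions. The median gap between replicates per exon was 10.3 percentage points in shScr and 6.72 in shTet3.

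The exons with the largest losses lay in genes of varied function. They were taken after the values were seen, since no exon passed the adjusted limma test, from the 8 exons with 5 or more covered CpGs that had the most negative change among those in which both shTet3 libraries lay below both shScr libraries, and 6 of them are described. *Cdh3* encodes P-cadherin, a cell adhesion protein. Its inner exon at chr8:109063695-109063823, whose sequence is given above, had 5mC of 73.7% and 83.9% in shScr against 36.5% and 47.0% in shTet3 over 6 CpGs, and each of the 6 was a hypo-DMP. The exon was chosen by these same values, so the distance between its groups is only described.

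*Dnhd1*, a dynein heavy chain domain gene, had the most negative change (-44.9), with 68.9% and 79.8% in shScr against 33.1% and 25.9% in shTet3 over 5 CpGs. *Ltbp2*, a latent TGF-β binding protein gene, had 67.8% and 83% against 34.7% and 41.6%. The other 3 were exons of *Zfp474*, *Cyp2w1*, a cytochrome P450 gene, and *Padi2*, a peptidylarginine deiminase gene, with changes of -36.2, -34.5 and -34.2. Hypo-DMPs were all 5 CpGs in *Dnhd1*, *Ltbp2* and *Zfp474*, but 2 of 5 in *Cyp2w1* and 3 of 6 in *Padi2*. Coverage went down to 10 calls in *Dnhd1*, *Zfp474* and *Cyp2w1* and to 12 in *Padi2*. The adjusted limma *p* was 0.244 for each of these 6 exons, with log2 changes between -2.74 (SE 0.75) and -2.21 (SE 0.74). Taken as the same DNA and not used to choose the exons, the BS libraries were also lower in shTet3 in each of the 6. These losses were smaller, with changes from -29.9 to -22.4.

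Few exons had more 5mC in shTet3. *Hs3st3b1*, which encodes a heparan sulphate sulphotransferase, had the largest gain among exons with both shTet3 libraries above both shScr libraries. Its last exon at chr11:63702632-63703247 had 54.5% and 72.7% in shScr against 75.4% and 83.6% in shTet3 over 11 CpGs, with a log2 change of 1.16 (SE 0.75) and an adjusted limma *p* of 0.336. In BS, the same exon had 67.8% and 88.9% in shScr against 69.2% and 77.6% in shTet3, so that the groups overlapped. The next exons without overlap were in *Gramd1a* with a change of 2.67, *Scrt1*, a neuronal zinc finger repressor gene, with 2.24 and *Baiap2l2* with 1.32. The last 2 were nearly unmethylated. *Scrt1* had 1.08% and 1.65% in shScr against 3.55% and 3.66% in shTet3, and *Baiap2l2* 0.556% and 1.32% against 1.51% and 3.01%. The BS changes of *Gramd1a*, *Scrt1* and *Baiap2l2* were -2.20, -2.50 and -2.28. None of these 3 was called by limma, with adjusted *p* values of 0.792, 0.384 and 0.312.

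**Figure D4:**
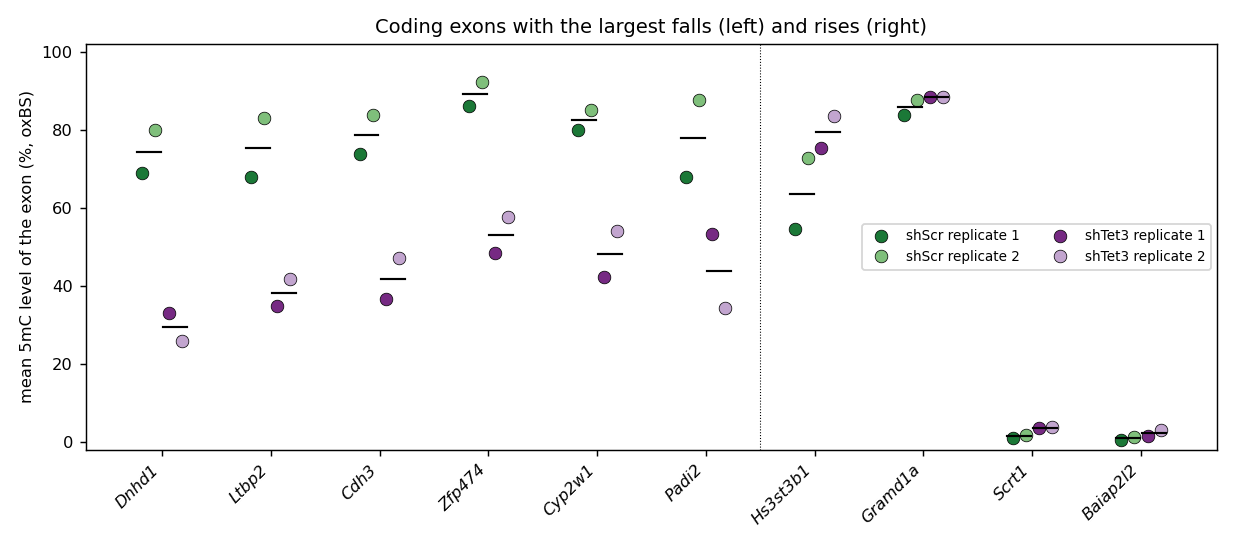
Mean 5mC (y axis, %, oxBS) of 6 of the 8 coding exons with the largest losses (left of the dotted line) and the 4 with the largest gains (right). Both were ranked only among exons in which the groups do not overlap. Each position on the x axis is one gene. Points are libraries and bars are means of 2 replicates. The groups do not overlap in any of these exons, which is how they were chosen. Among such exons the gains after *Hs3st3b1* are 2.67 percentage points or less. Exons with overlapping groups, not shown, had larger mean gains, up to 9.93 in inner exons with 5 or more covered CpGs.

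The exons with the most CpGs covered the range from nearly unmethylated to nearly full. Among first exons, *Sh2b3*, an adaptor protein gene, had 56 CpGs, at 38.7% and 56.0% in shScr against 43.6% and 49.4% in shTet3. *Skor2*, a transcriptional corepressor gene, had 46, at 28.2% and 30.7% against 22.6% and 21.9%. *Atxn1*, the ataxin-1 gene, had 41, at 87.2% and 92.9% against 77.9% and 78.2%. *Sh2b3* thus overlapped between the groups and the other two did not.

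Of the inner exons, the 106 CpGs of *Shroom3*, which encodes an actin-binding protein needed for neural tube closure, had 48.0% and 77.6% in shScr against 61.3% and 64.4% in shTet3. The shTet3 libraries lay between the shScr ones. *Spen*, a transcriptional repressor gene, had 88 CpGs in a single exon of 8020 coding bp, at 87.3% and 93.3% in shScr against 76.5% and 81.5% in shTet3, and 23 of them were hypo-DMPs. *Shank1*, a postsynaptic scaffold gene, had 67, at 27.5% and 26.0% against 18.9% and 18.2%. *Spen* and *Shank1* were lower in both shTet3 libraries.

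The last exons with the most CpGs were poorly methylated. *Fam171a2* (116 CpGs) had 2.77% and 7.36% in shScr against 4.64% and 3.31% in shTet3. *Zfp697* (103 CpGs) had 13.1% and 16.4% against 15.7% and 22.8%. *Scrt2* (98 CpGs), the paralogue of *Scrt1*, had 15.1% and 22.7% against 14.4% and 15.5%. The groups overlapped in *Fam171a2*, *Zfp697* and *Scrt2*.

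At the extremes of level, 4 exons with 10 or more CpGs had almost no 5mC in any oxBS library: *Inpp5b*, an inositol polyphosphate 5-phosphatase gene, *Shox2*, a homeobox gene, *Ano8*, an anoctamin gene, and *1700008O03Rik*. Their highest library mean was 0.226%, in *Shox2*, whose 20 CpGs had a coverage of at least 104. The most methylated were exons of *Dync1h1*, the cytoplasmic dynein heavy chain gene, *Zfat*, a zinc finger gene, *Homer3*, a postsynaptic scaffold gene, and *Acacb*, an acetyl-CoA carboxylase gene. *Dync1h1* had 96.1% and 95.4% in shScr against 85.3% and 91.3% in shTet3, and *Acacb* 94.0% and 97.2% against 87.3% and 86.5%. *Homer3* overlapped between groups, with 94.5% and 91.4% against 85.5% and 94.2%.

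The gene itself targeted by the shRNA had 48 covered CpGs in 3 coding exons. *Tet3* had 85.9% and 91.5% 5mC in shScr against 74.8% and 81.7% in shTet3, with 10 hypo-DMPs. *Dnmt1*, the maintenance methyltransferase gene, had 75.5% and 93.7% against 62.7% and 75.6% over 9 CpGs, and the groups overlapped. Of the 6 genes of DNA methylation machinery with covered CpGs, 5 had both shTet3 libraries below both shScr libraries. Together their 73 CpGs held 23 hypo-DMPs (31.5%) and 0 hyper-DMPs, and the median change per gene was -14.3. Over all 5140 genes with covered coding-exon CpGs the median was -14.9, and 3713 genes had both shTet3 libraries below.

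Genes of the extracellular matrix, of adhesion and of signalling are described next by their counts, beside 27.3% hypo-DMPs, a median change per gene of -14.9 and 9.96% of CpGs below 10% in shScr over all coding exons. No list was tested against the others. In 30 collagen genes, which encode extracellular matrix proteins, 143 of 344 CpGs (41.6%) were hypo-DMPs, the median change per gene was -18.2 and 0.872% of the CpGs were below 10%. *Col4a2* had 85.6% and 89.6% in shScr against 69.2% and 76.2% in shTet3, and *Col6a6* 63.9% and 72.9% against 51% and 51.4%. In 7 genes for Notch receptors and ligands, which control neural precursor maintenance, 69 of 173 CpGs (39.9%) were hypo-DMPs, the median change was -18.3 and 26.6% of the CpGs were below 10%. *Notch3* had 55.7% and 69.7% against 46.9% and 42.4%, whereas *Dll3* was nearly unmethylated at 1.19% and 3.54% against 0.256% and 1.18%. The 8 atypical cadherin genes had 34.5% hypo-DMPs and a median change of -15.2, and the 9 laminin genes 32.1% and -15.3. *Fat1*, an atypical cadherin gene, had 86.4% and 92.4% against 67.9% and 80.7%, and *Dchs1* overlapped between groups at 24.5% and 42.9% against 29.6% and 23.5%. *Lama5*, a laminin chain gene, had 80.2% and 89.6% against 69.3% and 69.99%, and *Lama1* 90.6% and 92.4% against 84.6% and 88.7%. The 20 semaphorin and plexin genes, guidance cues and their receptors, had 21.5% and -15.01. *Plxnb2* had 76.0% and 87.2% against 72.6% and 76.1%, and *Sema6c* 17.8% and 47.1% against 26.6% and 26.9%, with overlap between the groups in both.

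Genes of neurons showed a wide range of levels. In 49 ion channel genes, chosen by symbols starting with *Cacna1*, *Kcn* or *Scn*, 219 of 695 CpGs (31.5%) were hypo-DMPs and the median change per gene was -17.7. *Cacna1a*, a calcium channel gene, had 22.3% and 23.5% in shScr against 16.4% and 15.9% in shTet3, and *Kcnk12*, a potassium channel gene that is not of the voltage-gated kind, overlapped between groups at 8.69% and 12.7% against 7.84% and 17.3%. In 15 glutamate receptor genes 70 of 252 CpGs (27.8%) were hypo-DMPs and the median change was -20.3. *Grik5* had 82.6% and 88.5% against 65.6% and 64.9%, and *Grin2c* 11.4% and 24.1% against 12.1% and 12.9%. In 12 synaptic scaffold genes, with a median change of -11.9, 90 of 419 CpGs (21.5%) were hypo-DMPs, among them 36 of the 114 in *Bsn*, the presynaptic Bassoon gene (66.7% and 79.0% against 60.05% and 55.9%), and 12 of the 88 in *Shank1* (31.7% and 28.3% against 21.4% and 20.6%). In *Cacna1a*, *Grik5*, *Bsn* and *Shank1* both shTet3 libraries lay below both shScr libraries.

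Regulators of transcription formed 3 lists. In 12 neural progenitor transcription factor genes, 16 of 135 CpGs (11.9%) were hypo-DMPs, and 60% of their CpGs had a mean level below 10% in shScr. Counted by gene, the median change was -21.1, and 8 of the 12 genes had both shTet3 libraries below both shScr libraries. Over all coding exons this held for 3713 of 5140 genes. Counted by CpG, the median change of the list was -2.05, against -12.3 over all coding-exon CpGs. *Tbr1* and *Zic2* held 53 and 22 of the 135 CpGs, so the median by gene rests largely on genes with few CpGs. *Tbr1* had 2.87% and 3.05% in shScr against 2.50% and 4.14% in shTet3, and *Zic2* 9.94% and 6.88% against 8.45% and 5.64%, both with overlapping groups. In 19 genes of histone lysine methyltransferases and demethylases, which had 85.3% 5mC in shScr, 73 of 277 CpGs (26.4%) were hypo-DMPs and the median change was -11.4. *Mll2* had 85.4% and 92.9% against 74.3% and 80.9%, and *Kdm6b* 77.0% and 89.4% against 74.2% and 73.8%. In 127 zinc finger genes, chosen by symbols starting with *Zfp*, *Zscan*, *Zkscan*, *Zbtb* or *Znf*, 378 of 1508 CpGs (25.1%) were hypo-DMPs and the median change was -12.8. Another 22 were hyper-DMPs (1.46%, against 0.184% over all coding-exon CpGs), 10 of them in *Zfp787* and 9 in *Zfp697*. *Zfp697* is described above, and *Zfp771* had between 1.13% and 2.56% in the 4 oxBS libraries. The genes with the most covered CpGs over all their coding exons were *Kbtbd11* (121), *Fam171a2* (120), *Spnb4*, a spectrin gene (116), and *Bsn* (114). *Kbtbd11* had 7.86% and 7.27% against 6.61% and 5.41%, and *Spnb4* 11.3% and 13.7% against 8.91% and 9.08%.

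Within the reading frame, 5mC varied with the place of the CpG in the codon. A CpG at codon positions 1 and 2 lies in an arginine codon, one at positions 2 and 3 in a codon for serine, proline, threonine or alanine, and one at position 3 is completed by the first base of the next codon. CpGs at positions 1 and 2 (16598) had 65.7% and 76.4% in shScr against 56.7% and 59.1% in shTet3. Those at positions 2 and 3 (11254) had 58.0% and 68.5%, and 49.9% and 52.4%. Those across codons (16855) had 59.3% and 69.996%, and 51.1% and 53.2%. The CpGs at positions 1 and 2 were the highest in each library, by 7.29 ± 0.614 percentage points over those at positions 2 and 3 (SD, n = 4). In inner exons alone this difference was 4.30 ± 0.256. Within the same exon it was 1.41 ± 0.0840 over 3524 exons holding both kinds, with 51.7% to 53.2% of these exons having the higher mean at positions 1 and 2.

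**Figure D5:**
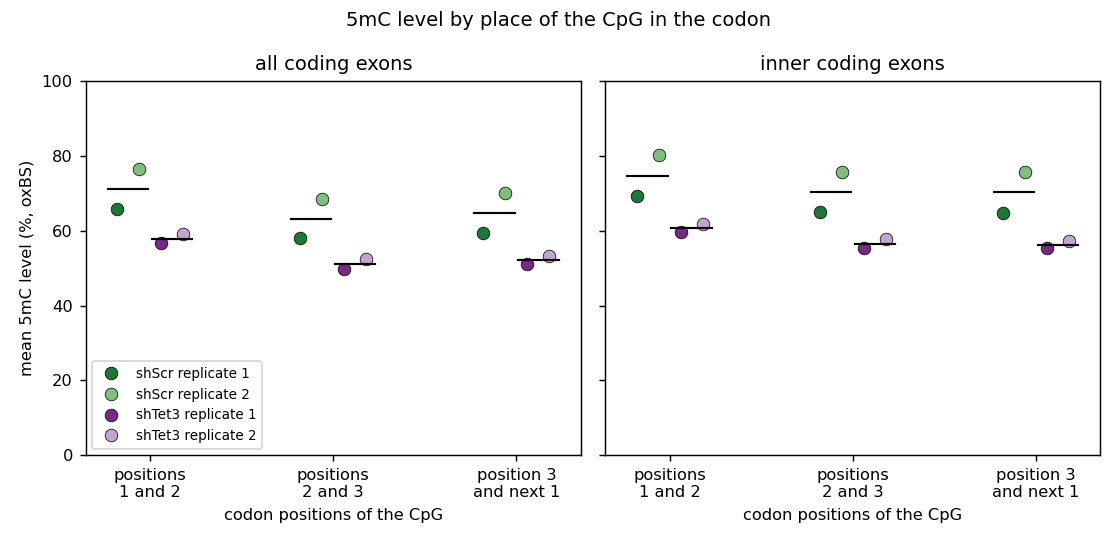
Mean 5mC level (y axis, %, oxBS) of CpGs by their place in the codon (x axis) in all coding exons (left) and inner coding exons (right). Points are libraries and bars are means of 2 replicates. CpGs at codon positions 1 and 2 are the highest in each library, and in inner exons the difference from positions 2 and 3 is 4.30 percentage points against 7.29 in all coding exons.

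The codon places differed most in their shares of poorly methylated CpGs and in dense sequence. Mean levels below 10% in shScr were found at 6.45% of CpGs at positions 1 and 2, 12.4% at positions 2 and 3 and 10.9% across codons. At 6 to 10 CpGs per window the shScr means were 79.8%, 78.3% and 77.7%, and at 16 or more they were 33.7%, 24.7% and 27.4%. By codon, CGG had 74.5% in shScr over 8122 CpGs and GCG 53.7% over 2806, and 4.17% and 21.9% of these CpGs were below 10%. The changes in shTet3 for the 3 places were -13.1, -12.1 and -12.5 percentage points, and hypo-DMPs made up 28.2%, 25.9% and 27.7%.

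The question whether coding exons hold 5hmC was addressed by BS minus oxBS between libraries of the same shRNA and number. Over coding-exon CpGs the mean was 0.531 and 0.247 percentage points in shScr, against 0.0387 and 0.295 in shTet3. Introns gave 0.901 and 0.906 in shScr against 0.699 and 0.811 in shTet3. The coding-exon values of the 2 shRNAs overlapped, and their order turned when CpGs were weighted by reads (means of 0.389 in shScr and 0.167 in shTet3, with weighting 0.0885 and 0.411). Across coding-exon CpGs of shScr, the values of the 2 replicates had a correlation of -0.00311, a description over 43108 CpGs that share their libraries. BS above oxBS was called at 295 coding-exon CpGs in shScr (0.684%, against 0.33% of all CpGs tested). BS below oxBS, a direction that 5hmC cannot give, was called at 156 (0.362%, against 0.17%). In introns the shScr shares were 0.738% above and 0.348% below. For coding exons of shTet3 the counts were 15 above (0.0319%, against 0.0239% of all CpGs tested) and 17 below (0.0362%, against 0.0141%). Introns of shTet3 had 0.0446% above and 0.0409% below. The shScr count was 2 without replicate 1 and 618 without replicate 2, and the F test called 0, with 23 above and 26 below at an unadjusted *p* below 0.05 and a difference over 10 percentage points (0.0534% and 0.0603%, against 0.0288% and 0.0202% of all CpGs tested).

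The exons with the largest BS minus oxBS in shScr were in *Trim17*, a ubiquitin ligase gene, *Unc13a*, a synaptic vesicle priming gene, and *Grap2*, an adaptor gene of lymphocytes. *Trim17* had 8.25 and 33.8 percentage points in the 2 shScr replicates and 3.87 and -0.114 in shTet3 over 8 CpGs. *Unc13a* had 17.7 and 23.7 in shScr against 11.4 and -6.02 in shTet3. *Grap2* had 22.4 and 9.55, and 6.28 and -21.7 over 5 CpGs. The shScr values chose these exons, and in shTet3 each of the 3 was positive in replicate 1 and negative in replicate 2.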

How the data were processed

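The authors trimmed reads with Trim Galore in RRBS mode and aligned them with Bismark and bowtie2, according to the methods and the submitters' processing notes (build mm9). For each CpG and library the authors deposited its coverage as a raw count of calls, and the percent of those calls that were C and T. Coverage was at least 5 in every file, and percent times coverage gave whole methylated calls. Reads carry no molecular identifiers, so tests on calls cover counting error only.

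CpGs with 10 or more calls in the libraries compared were kept, and levels are unweighted means over CpGs. DMPs came from a logistic likelihood ratio test per CpG, adjusted (Benjamini-Hochberg) over all CpGs tested, those with 10 or more calls in the libraries compared. Exons with 3 or more CpGs, and 1 kb tiles elsewhere, were fitted together by limma 3.58.1 (R 4.3.3, trend) with 1 call added to each state. Library means were compared by exact permutation. The likelihood ratio test and limma were also run on simulated calls. Those for the likelihood ratio test had no spread between replicates beyond counting error, and those for limma an assumed spread. They therefore cannot show how these tests behave at the spread of these libraries. Named exons followed a fixed rule: the 8 largest falls and 4 largest rises without overlap of the groups, the most CpGs per class, the extremes of level and of BS minus oxBS, and the 2 genes with most CpGs per list. No exon passed limma, so the falls were taken without that call, and 2 of them are not reported here. Members, lists and tests were chosen with earlier results of these data known. BS and oxBS libraries of one shRNA and number were taken as the same DNA, which their titles do not state. Their replicate differences correlated, at 0.376 in shScr and 0.297 in shTet3. Libraries of shScr and shTet3 with the same number were taken to share only that number. Alternatives were other coverage minimums, a 5 kb distance, read weighting, a coverage limit, other tests and thresholds, the replicate block, left-out replicates and, added after the data were seen, weighting by CpG density.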

Additional observations from a re-analysis of the deposited data

How the results depend on the processing

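Of 150 alternatives over 15 results, 116 were labelled the same. Counts had to stay within 1.5 times and other results to keep their direction. BS minus oxBS and the codon difference also had to stay within an SD of the main value. The coding-exon change of 5mC was negative in each of its alternatives. It ran from -17.9 to -7.31 with a replicate left out, and from -18.0 to -7.67 in BS. Coding-exon minus intron 5mC turned to 0.456 at a coverage minimum of 5, 0.912 beyond 5 kb, 4.14 for CpGs above 50% in shScr BS (a filter on the level itself) and 11.3 after density weighting, and ranged from -0.847 to 0.368 with a replicate left out. Its change turned to -0.694 after density weighting. At a 25-point difference, hypo-DMPs were 4876, hyper-DMPs 17, and BS above oxBS 63 in shScr and 9 in shTet3. The F test gave 0 for each of these. Hyper-DMPs were 49 with both replicates beyond both controls and 37 in BS. Fisher's exact test gave 8 for BS above oxBS in shTet3. With a replicate left out, hypo-DMPs ranged from 4734 to 16303, hyper-DMPs from 26 to 500, BS above oxBS from 2 to 618 in shScr and 0 to 124 in shTet3, and limma exons from 0 to 2813 lower and 0 to 1 higher, where a lone library is assumed to vary like the others. Read weighting gave BS minus oxBS of 0.0885 in shScr and 0.411 in shTet3. The codon difference was 4.30 in inner exons. With the replicate block, limma called 136 exons lower. Same-numbered shScr and shTet3 libraries did not deviate together (correlation -0.0451 over 45763 CpGs), so this block pairs only numbers. The causes were not tested. Depth limits single CpGs: a median of 41 to 53 calls per library.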
